A study of Mus musculus with 36 samples.

Results

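The 40 genes described here are mouse counterparts of human genes in which damaging variants are linked to autism and intellectual disability. They come from a list of named genes, and all 40 are among the 24421 genes listed for each tissue. By role, 17 encode chromatin proteins, 8 transcription factors and other regulators of transcription, 6 proteins of the synapse and the neuronal membrane, and 9 proteins of signalling, ubiquitin transfer, RNA control and the cytoskeleton. Pogz, itself such a risk gene, is the gene deleted and is treated apart. Bulk poly(A) RNA of cerebellum and hippocampus was sequenced from the same 18 adult C57Bl/6 mice, 3 males and 3 females of each genotype, and each library is 1 tissue of 1 animal.

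Control mice carry both floxed Pogz copies and no Cre (Pogzfl/fl). The cKO+/- mice carry NesCre/+ with Pogzfl/+, and the cKO-/- mice carry NesCre/+ with Pogzfl/fl. Controls are littermates. All genotypes share at least 1 floxed copy, while the Cre transgene is present in mutants alone, so against controls an effect of Cre and an effect of the lost allele cannot be told apart. Both mutant genotypes carry Cre and differ in the number of alleles lost. The Nestin promoter drives Cre in neural progenitors and their descendants across the central and peripheral nervous system. The labels give the age as adult.

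POGZ is a zinc finger protein of heterochromatin that binds HP1 proteins, and new mutations in its gene recur in neurodevelopmental disorders. Many other risk genes also encode chromatin proteins, such as nucleosome remodellers and histone methyltransferases that set the activity of large groups of genes in developing neurons, while a second class encodes scaffold and adhesion proteins that hold receptors at synapses. Cerebellar granule and Purkinje neurons and hippocampal pyramidal and granule neurons use different members of these families.

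Sequencing depth, in mega-counts per library, was 21.4 to 32.5 (median 28.3) in the cerebellum and 17.6 to 45.5 (median 35.5) in the hippocampus. Levels are given as CPM, counts per mega-count after TMM scaling, and, where genes are compared with each other, as RPKM, the same per kilobase of exon. In controls, all 14 tested markers of cerebellar neurons were lower in hippocampus (median log2 fold change, hippocampus minus cerebellum, -5.18) and all 14 markers of hippocampal neurons were higher (median 4.52), so the tissue labels fit. In the hippocampus the cKO-/- library of animal Sample_1160 stood apart: its median correlation with the other libraries was 0.871, against 0.974 to 0.989 for the other 17, and 38 of the 40 members were below their control mean there (median log2 departure -0.96, chromatin members -1.34). Over all genes tested the median departure of that library was 0.00, and over genes with more than 6 kb of exon it was -0.88. Its summed meningeal markers were the highest of the tissue, at 864.6 CPM. Hippocampal results are given without this library, which leaves 17, and repeated with all 18. In the cerebellum the control Sample_1190 had all 39 tested members below the control mean (median log2 departure -0.25, synapse and membrane members -0.60), and the cKO-/- animals Sample_1379 and Sample_1385 had medians of -0.27 and -0.28.

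Animal numbers are not spread evenly over the genotypes. The numbers of 7 animals lie outside Sample_1120 to Sample_1219: none of the controls, 3 of the cKO+/- animals (Sample_933, Sample_938 and Sample_1433) and 4 of the cKO-/- animals (Sample_936, Sample_1371, Sample_1379 and Sample_1385). Chromatin members in the cerebellum had a median log2 departure of -0.20 in Sample_1371, -0.39 in Sample_1379 and -0.41 in Sample_1385, against 0.16 in each of Sample_1160 and Sample_1219 and 0.02 in Sample_936. Within the homozygous mice the low chromatin values thus sit in 3 of the 4 animals numbered outside that range. With no control outside the range, whatever the number stands for and the genotype cannot be told apart where the animals outside it are set against controls. Fits with a term for the range are given beside the results below, as are fits of the animals inside it alone, which were chosen after seeing the data. The latter rest on 2 cKO-/- animals in the cerebellum and on Sample_1219 alone in the hippocampus.

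**Figure D1:**
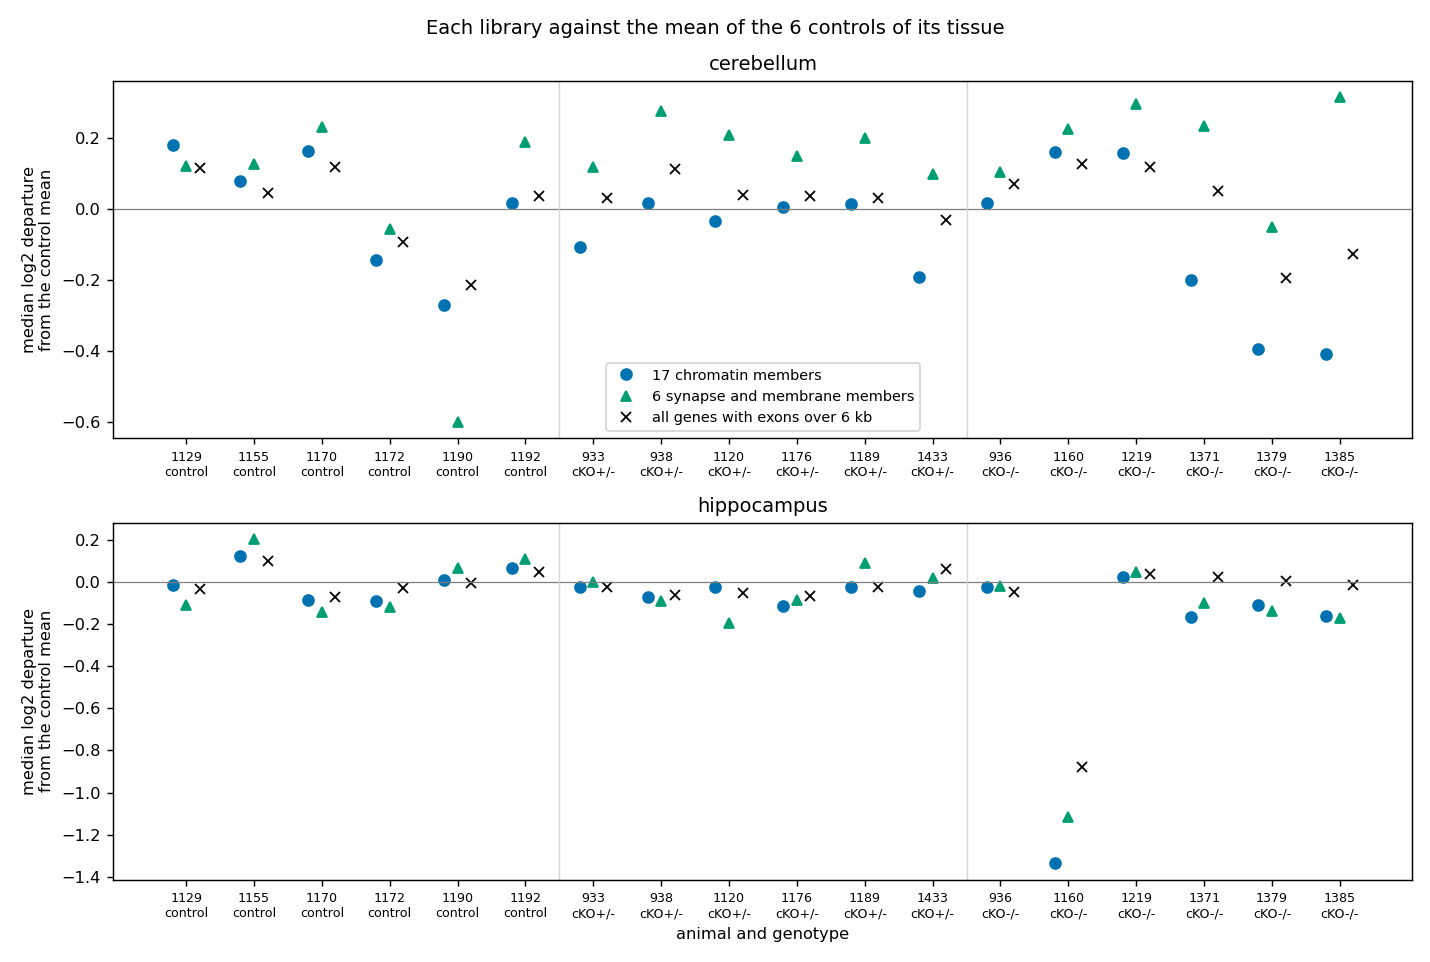
Median log2 departure of 17 chromatin members, 6 synapse and membrane members and all genes with more than 6 kb of exon from the mean of the controls, for each library in both tissues. The hippocampal library of Sample_1160 lies far below all others, and cerebellar chromatin members are lowest in the cKO-/- animals Sample_1379 and Sample_1385.

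Mean Pogz RNA was lower with each lost allele in both tissues. In the cerebellum the lowest, median and highest Pogz levels were 89.6, 93.1 and 129.6 CPM in controls, 66.4, 80.1 and 81.5 CPM in cKO+/- mice and 57.0, 65.3 and 74.0 CPM in cKO-/- mice. In the hippocampus they were 89.0, 90.75 and 92.8 CPM in controls and 74.0, 75.6 and 80.2 CPM in cKO+/- mice, and the cKO-/- libraries had 67.7 (Sample_1219), 61.8 (Sample_936), 60.7 (Sample_1371), 59.7 (Sample_1379) and 58.7 CPM (Sample_1385), with 53.6 CPM in Sample_1160. Controls were above every mutant library in both tissues, and in the hippocampus the 3 genotypes did not overlap at all. Mean Pogz in cKO-/- mice was 66% of control in the cerebellum and 67.9% in the hippocampus (66.4% with Sample_1160), and in cKO+/- mice 78.1% and 84.1%. The counts cover the whole gene, so transcripts with and without the floxed exons are summed in these levels. Per allele lost, Pogz changed by a log2 fold change of -0.30 (standard error 0.0457, adjusted p = 0.0003565) in the cerebellum and -0.28 (standard error 0.0205, adjusted p = 1.79e-07) in the hippocampus. Here and below an adjusted p comes from edgeR's quasi-likelihood test with Benjamini-Hochberg adjustment over all genes tested in that fit, unless DESeq2 is named, and a gene is called when it is below 0.05. For the animals inside Sample_1120 to Sample_1219 alone the cerebellar value was -0.23 (adjusted p = 0.0664), with adjusted p of 1.535e-07 to 0.0664 over the alternatives. In cKO+/- mice against controls Pogz was not called in the cerebellum (log2 fold change -0.36, adjusted p = 0.153) and was called in the hippocampus (-0.25, adjusted p = 0.0194).

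In control mice, 28 of the 40 members differed between the tissues, 16 higher and 12 lower in hippocampus, or 70% beside 71.9% of all genes tested. The largest differences were those of 3 transcription factors, followed by Dscam. Tbr1, a T-box factor of cortical and hippocampal glutamatergic neurons, had mean levels of 0.153 RPKM in cerebellum and 13.6 RPKM in hippocampus (log2 fold change 6.555, adjusted p = 3.57e-12). Bcl11a, a zinc finger repressor, had 2.41 and 17.7 RPKM (2.97, adjusted p = 6.93e-13). Foxp2, a forkhead repressor of Purkinje cells and other neurons, went the other way with 1.98 and 0.226 RPKM (-3.08, adjusted p = 6.58e-09). Dscam, an adhesion molecule of the immunoglobulin family, had 3.97 RPKM in cerebellum and 11.7 RPKM in hippocampus (1.65, adjusted p = 5.88e-08). Genes with large tissue differences are mostly at the low end of the cerebellar levels, where Tbr1, Asxl3, Katnal2, Foxp2 and Bcl11a were the 5 lowest members.

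Of the other members higher in hippocampus, Foxp1 (log2 fold change 1.53), Katnal2 (1.52), Asxl3 (1.48), Tcf20 (1.19) and Myt1l (1.13) differed most, followed by Nlgn3 (0.96) and Cntnap2 (0.93). Dnmt3a (-0.73), Kmt2c (-0.64), Chd2 (-0.62) and Ank2 (-0.50) led those lower in hippocampus, after Foxp2. The highest member in both tissues was Ctnnb1, the beta-catenin of adherens junctions and Wnt signalling, at 191.0 and 165.7 RPKM, followed by Ank2, an ankyrin that links membrane proteins to spectrin, at 120.0 and 79.7 RPKM. Next came Cul3 in cerebellum at 56.35 RPKM and Tcf4 in hippocampus at 63.1 RPKM. Chd8, Ash1l, Kmt2a, Setd5, Ehmt1, Med13l, Shank2, Shank3, Ctnnb1, Trip12, Wac and Tsc1 were not called between the tissues.

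**Figure D2:**
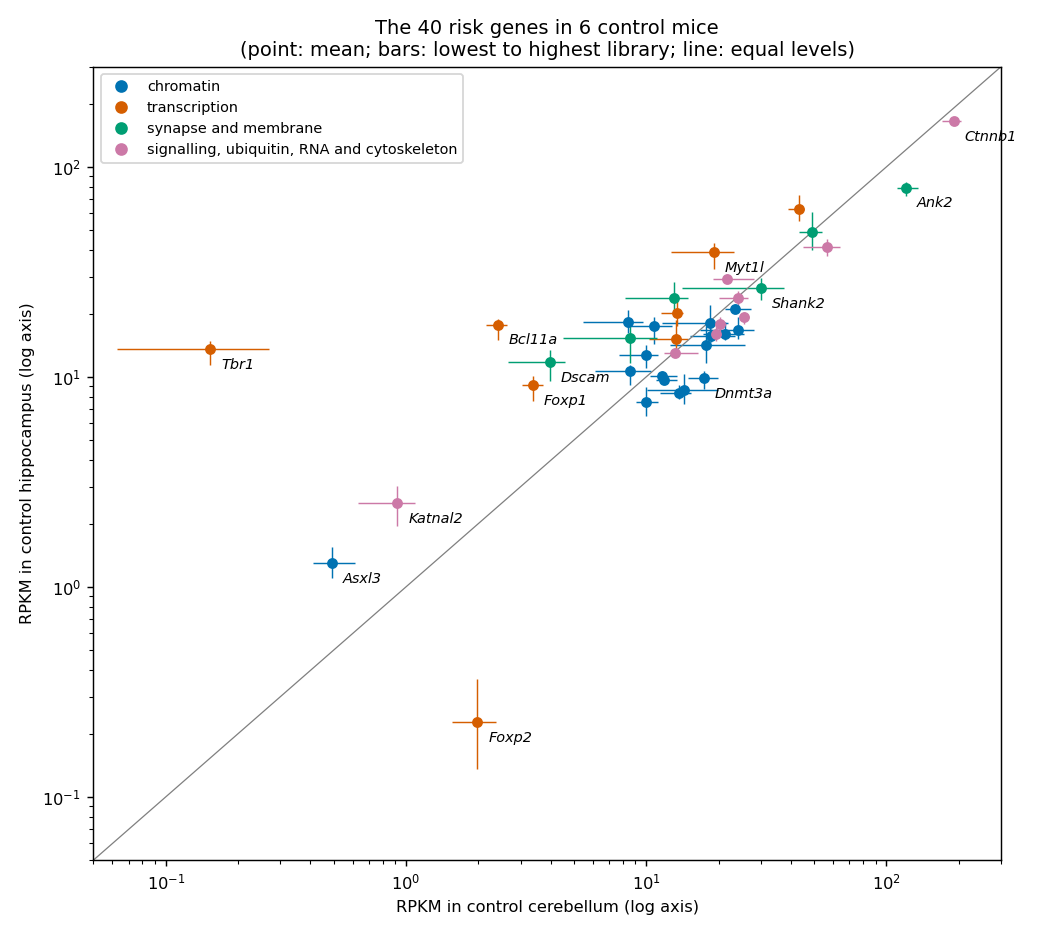
Mean RPKM of each of the 40 members in control cerebellum (horizontal, log axis) and control hippocampus (vertical, log axis) over 6 mice, with bars from the lowest to the highest library. Tbr1, Bcl11a and Dscam lie above the line of equal levels and Foxp2 below it, while most chromatin members lie close to it.

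Per lost Pogz allele, edgeR's quasi-likelihood test with a term for sex called few members in either tissue, those in the cerebellum up and those in the hippocampus down. In the cerebellum, 39 members passed the filter (Tbr1 did not) and 3 were called, Bcl11a, Dscam and Foxp2, all upward. That is 7.69% of the members, beside 13.7% of all genes tested. In the hippocampus all 40 members passed and 2 were called, Arid1b and Auts2, both downward, or 5% beside 4.44% of all genes. Both shares are near or below the background of this test. DESeq2 called 5 of 39 in the cerebellum, all up, beside 18.3% of all genes, and 6 of 40 in the hippocampus, all down, beside 7.37%. Cerebellar fits with an exon length slope or with scores of neighbouring tissue called more members and mostly downward. They called 15 of 39 (10 down) and 16 of 39 (15 down) in that order, beside 18.6% and 11.3% of all genes. The fit with a term for the animal number range called 0, as given below. By edgeR, at unadjusted p below 0.05 there were 11 members in the cerebellum, 6 up and 5 down, and 12 in the hippocampus, 1 up and 11 down, beside 4233 of 14027 and 2883 of 14339 genes. The median log2 fold change per allele of the members was -0.03 in the cerebellum and -0.04 in the hippocampus, beside 0.00 over all genes in each, with 21 of 39 and 28 of 40 members below 0.

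With all 18 hippocampal libraries, edgeR's quasi-likelihood test called 0 of 40 members, beside 1.72% of all genes. DESeq2 also called 0, beside 522 of 14339 genes. At unadjusted p below 0.05 there were 7 members, all down, which are not set beside all genes here. With this library in, 34 of the 40 members were below 0 and their median was -0.09, beside 0.01 over all genes. Single animals also moved the counts. In the cerebellum 6 members were called without Sample_1160 (beside 18.3% of all genes in that fit) and 5 without Sample_1219 (16.5%). In the hippocampus 3 members were called without Sample_936, Sample_1120, Sample_1170 or Sample_1219 (3.38% to 6.53% of all genes), 1 without Sample_933, Sample_938, Sample_1129, Sample_1155 or Sample_1189 (3.42% to 4.28%), and 0 without Sample_1190, Sample_1192, Sample_1371, Sample_1379 or Sample_1385 (1.99% to 3.11%). A term for animal numbers outside Sample_1120 to Sample_1219 left 0 members called in either tissue, beside 2.2% of all genes in the cerebellum and 0.474% in the hippocampus. Fewer cells that express a gene and less of its RNA per cell cannot be told apart in bulk tissue.

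**Figure D3:**
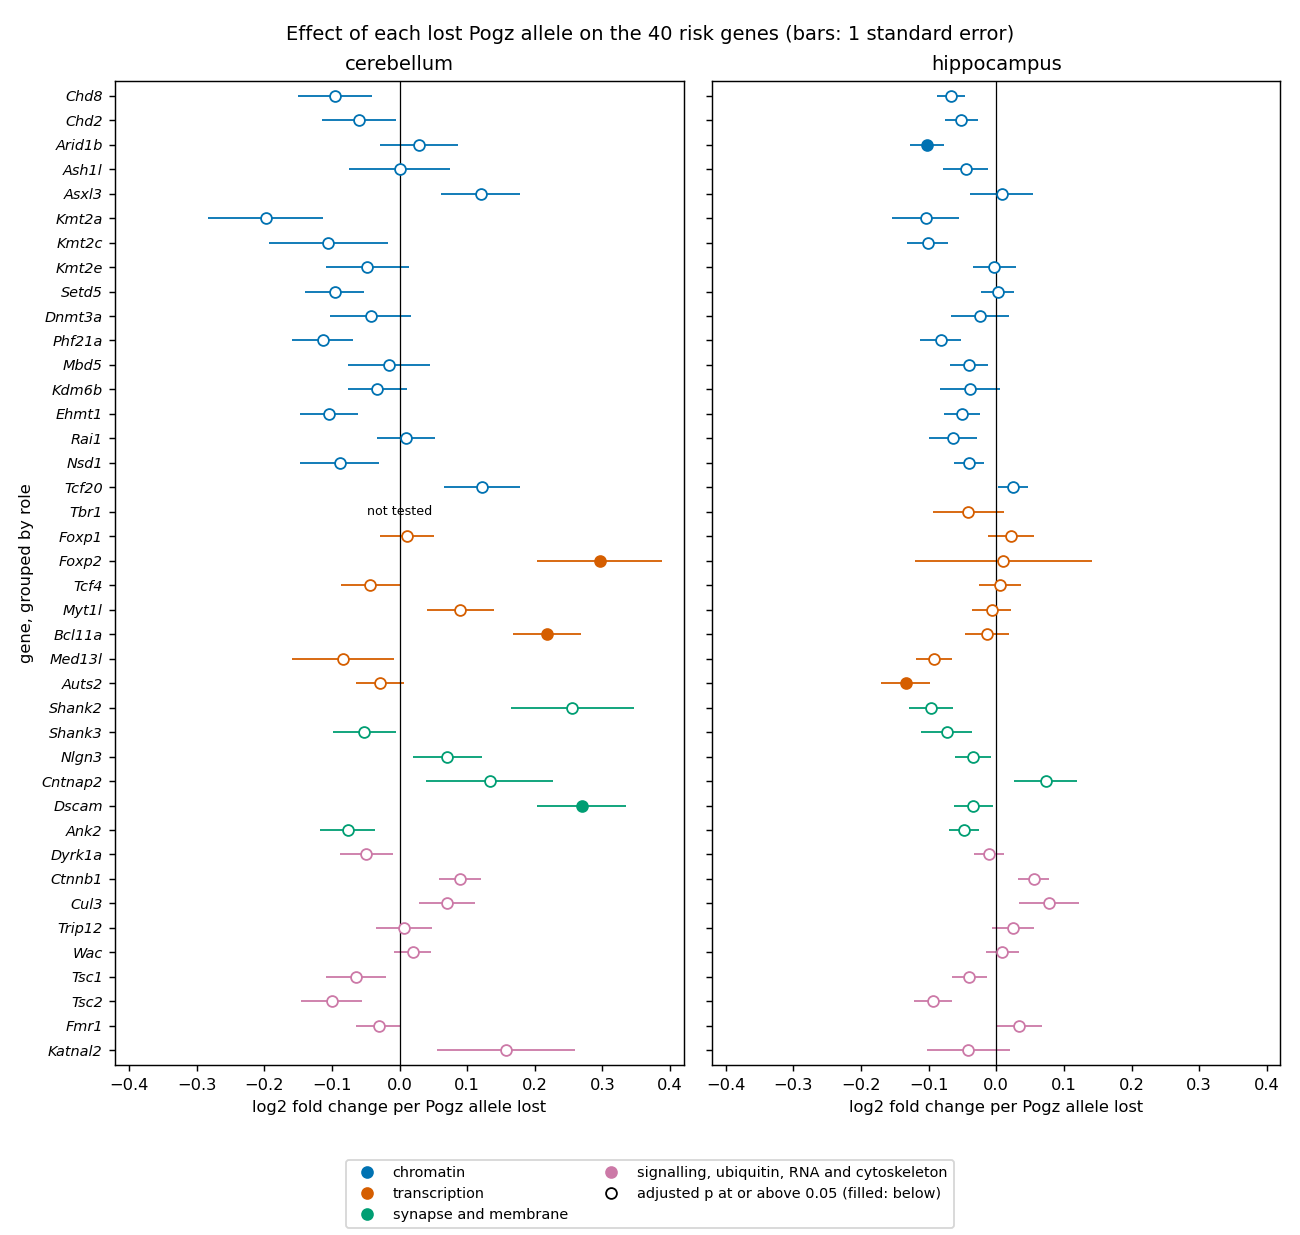
Log2 fold change per Pogz allele lost (horizontal) for each of the 40 members, grouped by role, in cerebellum and in hippocampus, with bars of 1 standard error and filled points for adjusted p below 0.05. Chromatin members lie mostly left of 0 in both tissues, and Bcl11a, Foxp2 and Dscam lie to the right in the cerebellum and near 0 in the hippocampus.

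The sequences before the starts of Bcl11a and Dscam are shown because these members were called for a difference between the tissues in their response, Bcl11a in fits without a block for the animal, as described below. RefSeq gives promoter entries for 27 of the 40 members, 45 in all, on build GRCm38.p6. The 250 bases before the start of Bcl11a are chr11:24080445-24080694 on the plus strand, inside the gene as counted but in none of its counted exons, with the RefSeq start 2639 bases downstream of the first counted exon's start. Those of Dscam are chr16:97170736-97170985 on the minus strand, directly upstream of the first counted exon. Capitals mark CG dinucleotides, the sites of DNA methylation.
Bcl11a: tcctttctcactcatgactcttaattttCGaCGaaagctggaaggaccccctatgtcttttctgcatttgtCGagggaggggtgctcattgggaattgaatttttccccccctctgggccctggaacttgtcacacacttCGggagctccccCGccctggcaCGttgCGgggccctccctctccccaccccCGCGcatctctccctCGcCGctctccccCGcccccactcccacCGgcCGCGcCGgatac
Dscam: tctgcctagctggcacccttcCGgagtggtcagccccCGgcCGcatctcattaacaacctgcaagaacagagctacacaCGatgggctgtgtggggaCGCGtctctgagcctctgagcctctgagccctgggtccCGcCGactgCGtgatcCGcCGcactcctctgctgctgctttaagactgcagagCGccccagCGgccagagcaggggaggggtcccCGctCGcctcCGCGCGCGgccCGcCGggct
The Bcl11a window holds 16 CG and 62% G and C, and the Dscam window 21 CG and 68%. Searched on both strands, GGGCGG occurs 2 times and the box CCAAT 1 time before Bcl11a, and neither occurs before Dscam, while TATAAA is in neither window. Of all 32851 promoters, 32.7% hold the first motif, 33.8% the second and 12.4% the third, with a median of 6 CG. Of the 45 entries of members the shares were 60%, 22.2% and 6.67%, with a median of 19 CG. No entry was found for Foxp2, Auts2, Shank2, Nlgn3, Asxl3, Ash1l, Chd2, Kdm6b, Kmt2e, Nsd1, Katnal2, Tcf4 and Wac.

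Of the chromatin members, edgeR's quasi-likelihood test called none in the cerebellum and 1 in the hippocampus, downward. In the cerebellum that test called 0 of 17, beside 13.7% of all genes, and DESeq2 called 0, beside 2569 of 14027. There 12 of 17 were below 0 with a median of -0.05, and 5 had unadjusted p below 0.05 (4 down). In the hippocampus edgeR's test called 1 of 17, beside 4.44% of all genes, and DESeq2 called 3, all down, beside 1056 of 14339. Of the 17, 14 were below 0 there, again with a median of -0.05, and 6 had unadjusted p below 0.05, all down. All genes at unadjusted p below 0.05 are given above. The cerebellar median did not keep its sign. It was 0.02 with a term for the animal number range, 0.06 for the animals inside the range alone and -0.22 with scores of neighbouring tissue as terms, whereas the hippocampal median lay from -0.11 to -0.03 over all alternatives.

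Arid1b, a DNA-binding subunit of BAF nucleosome remodellers, was the chromatin member called down in the hippocampus by edgeR's quasi-likelihood test. Its lowest, median and highest levels there were 125.2, 144.3 and 160.3 CPM in controls and 118.8, 139.0 and 151.1 CPM in cKO+/- mice. The cKO-/- libraries had 142.1 (Sample_1219), 137.9 (Sample_936), 125.4 (Sample_1371), 116.0 (Sample_1385) and 113.5 CPM (Sample_1379), and Sample_1160 had 52.2 CPM. Animals Sample_1379 and Sample_1385 were below every control and the other 3 within the control range. Arid1b changed by -0.10 (standard error 0.02515, adjusted p = 0.0247) per allele. Without Sample_1190, Sample_1192, Sample_1371, Sample_1379 or Sample_1385 the adjusted p was 0.0636, 0.0590, 0.0764, 0.0745 and 0.0516 in that order, and with all 18 libraries the value was -0.18 (adjusted p = 0.245). Without a term for sex it was -0.09 (adjusted p = 0.207), also not called, within 0.00379 to 0.835 over the alternatives. In the cerebellum the Arid1b levels were 87.3, 114.9 and 127.0 CPM in controls, 94.7, 127.3 and 130.9 CPM in cKO+/- and 92.1, 120.8 and 145.8 CPM in cKO-/- mice. The cerebellar groups overlap throughout and the change per allele was 0.03 (adjusted p = 0.770). With scores of neighbouring tissue as terms it was -0.18 (adjusted p = 0.0295), within 0.0295 to 0.9999 over the alternatives.

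Chd8, a chromodomain helicase, had cerebellar levels of 124.6, 152.9 and 191.8 CPM (lowest, median and highest) in controls, 138.9, 140.5 and 151.7 CPM in cKO+/- and 105.7, 137.9 and 162.1 CPM in cKO-/- mice. In the hippocampus they were 119.5, 127.4 and 139.0 CPM in controls and 115.8, 125.2 and 133.7 CPM in cKO+/- mice, and the cKO-/- libraries had 126.5 (Sample_936), 125.9 (Sample_1219), 115.6 (Sample_1379), 114.5 (Sample_1371) and 109.0 CPM (Sample_1385), with 75.5 CPM in Sample_1160. Leaving Sample_1160 aside in the hippocampus, Chd8 was lowest among cKO-/- mice in Sample_1371, Sample_1379 and Sample_1385 in both tissues, and the groups overlap. The change per allele was -0.09 in the cerebellum (adjusted p = 0.251, from 0.01265 to 0.984 over the alternatives). There it was -0.27 (adjusted p = 0.01265) with scores of neighbouring tissue, -0.12 (adjusted p = 0.0182) with an exon length slope and -0.05 without control Sample_1129. In the hippocampus it was -0.07 (standard error 0.0204, adjusted p = 0.0718, from 0.0151 to 0.831 over the alternatives). DESeq2 called Chd8 and Kmt2c beside Arid1b in the hippocampus, so the count of chromatin members there is 3 of 17 with that tool, beside 7.37% of all genes.

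Kmt2a, a histone H3 lysine 4 methyltransferase, had 205.7, 275.9 and 423.9 CPM in control cerebellum, 233.7, 243.7 and 263.9 CPM in cKO+/- and 144.4, 226.8 and 302.2 CPM in cKO-/- mice. The highest Kmt2a value was in control Sample_1129 and the lowest in cKO-/- animals Sample_1379 and Sample_1385, with overlap between all groups. In the hippocampus Kmt2a had 191.0, 229.4 and 285.7 CPM in controls and 187.2, 223.7 and 240.9 CPM in cKO+/- mice, and the cKO-/- libraries had 243.3 (Sample_1219), 219.6 (Sample_936), 190.7 (Sample_1371), 189.6 (Sample_1379) and 168.7 CPM (Sample_1385), with 87.8 CPM in Sample_1160. As in the cerebellum, Sample_1371, Sample_1379 and Sample_1385 were below every control. The change per allele was -0.20 (standard error 0.08545, adjusted p = 0.124) in the cerebellum and -0.10 in the hippocampus (adjusted p = 0.245). The cerebellar value was -0.26, adjusted p = 0.0385 without Sample_1160, and -0.13 without control Sample_1129. It was -0.24 (adjusted p = 0.0139) with an exon length slope as a term, -0.42 (adjusted p = 0.0211) with scores of neighbouring tissue and -0.04 (adjusted p = 0.832) for the animals inside the number range alone, so the adjusted p ran from 0.0139 to 0.832.

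Ehmt1, a histone H3 lysine 9 methyltransferase, had 53.0, 59.4 and 68.7 CPM in control cerebellum, 51.8, 54.95 and 58.1 CPM in cKO+/- and 42.1, 51.45 and 61.6 CPM in cKO-/- mice. In the hippocampus Ehmt1 had 48.9, 50.85 and 54.6 CPM in controls and 46.1, 49.9 and 51.4 CPM in cKO+/- mice, and 53.0 (Sample_1219), 52.0 (Sample_936), 47.6 (Sample_1379), 44.8 (Sample_1371) and 42.8 CPM (Sample_1385) in cKO-/- libraries, with 22.8 CPM in Sample_1160. In both tissues Sample_1371, Sample_1379 and Sample_1385 were below every control, and Sample_936 and Sample_1219 were not. Ehmt1 was not called in the cerebellum (-0.10, adjusted p = 0.1115) or the hippocampus (-0.05, adjusted p = 0.299). Leaving out Sample_1219 gave -0.13, adjusted p = 0.0416 in the cerebellum, within 0.0153 to 0.916 over the alternatives.

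The other 13 chromatin members had changes per allele of -0.11 to 0.12 in the cerebellum and -0.10 to 0.02 in the hippocampus. The lowest in the cerebellum were Phf21a, a reader of unmethylated histone H3 (-0.11, adjusted p = 0.0925), Kmt2c, a second histone H3 lysine 4 methyltransferase (-0.11, adjusted p = 0.442), and Setd5, a SET domain protein (-0.10, adjusted p = 0.145), followed by Nsd1 (-0.09) and Chd2 (-0.06). Tcf20 (0.12, adjusted p = 0.151) and Asxl3, a Polycomb group protein (0.12, adjusted p = 0.176), had the highest values. In the hippocampus Kmt2c (-0.10, adjusted p = 0.0714), Phf21a (-0.08, adjusted p = 0.139), Rai1 (-0.06) and Chd2 (-0.05) were lowest. Ash1l, Dnmt3a, Kdm6b, Kmt2e and Mbd5 lay between -0.05 and 0.00 in both tissues.

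Among the transcriptional regulators, Bcl11a and Foxp2 rose in the cerebellum and Auts2 fell in the hippocampus. Of 7 tested in the cerebellum 2 were called up, beside 13.7% of all genes called, with a median over the 7 of 0.01, and of 8 in the hippocampus 1 was called down, beside 4.44%, with a median of -0.01. DESeq2 called the same 2 in the cerebellum, and Med13l beside Auts2 in the hippocampus, both down. Bcl11a in the cerebellum had a lowest, median and highest level of 15.04, 17.1 and 18.5 CPM in controls, 16.8, 18.03 and 21.8 CPM in cKO+/- mice and 17.6, 22.2 and 29.0 CPM in cKO-/- mice. Of the cKO-/- mice, 5 were above every control, with Sample_1385 and Sample_1371 highest, and Sample_936 was inside the control range. The change was 0.22 (standard error 0.0504, adjusted p = 0.00972) per allele and was called whichever of the 18 animals was left out. With a term for the animal number range it was 0.17 (adjusted p = 0.180) and for the animals inside the range alone 0.13 (adjusted p = 0.1965), from 0.00139 to 0.1965 over all alternatives. In the hippocampus Bcl11a had 105.5, 128.3 and 131.8 CPM in controls and 119.1, 126.2 and 137.3 CPM in cKO+/- mice, and the cKO-/- libraries had 139.7 (Sample_936), 122.1 (Sample_1219), 119.7 (Sample_1379), 119.6 (Sample_1371) and 109.8 CPM (Sample_1385), with 162.6 CPM in Sample_1160. These groups overlap, and the change was -0.01 (adjusted p = 0.847).

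Foxp2 in the cerebellum had 10.9, 14.0 and 16.8 CPM in controls, 13.4, 14.9 and 22.5 CPM in cKO+/- mice and 14.0, 18.6 and 36.3 CPM in cKO-/- mice. The cKO-/- animal Sample_1385 was far above all other libraries, Sample_936 was inside the control range, and the remaining 4 were above every control. Foxp2 rose by 0.30 (standard error 0.0927, adjusted p = 0.0402) per allele. The call ended without Sample_1129, Sample_1170, Sample_1172, Sample_1190, Sample_1192, Sample_1371 or Sample_1385, with adjusted p of 0.0841, 0.0566, 0.0608, 0.09015, 0.0571, 0.0892 and 0.128 in that order, and without Sample_1385 the change was 0.19. With a term for the animal number range it was 0.15 (adjusted p = 0.487), for the animals inside the range alone 0.14 (adjusted p = 0.330) and with scores of neighbouring tissue 0.41 (adjusted p = 0.0511), from 0.0165 to 0.487 over the alternatives. In the hippocampus Foxp2 is close to 1 CPM, with 0.962, 1.345 and 2.58 CPM in controls, 1.30, 1.855 and 2.53 CPM in cKO+/- and 2.06 (Sample_1385), 1.82 (Sample_1371), 1.55 (Sample_1379), 1.16 (Sample_1219) and 1.14 CPM (Sample_936) in cKO-/- mice, with 1.82 CPM in Sample_1160. All groups overlap there and the change was 0.01 (standard error 0.130, adjusted p = 0.976).

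Auts2, a nuclear protein of a Polycomb complex that activates transcription in neurons, had 105.9, 121.5 and 146.9 CPM in control hippocampus and 95.75, 106.8 and 122.9 CPM in cKO+/- mice. The cKO-/- libraries had 112.9 (Sample_936), 109.8 (Sample_1219), 100.9 (Sample_1371), 99.1 (Sample_1379) and 92.0 CPM (Sample_1385), and Sample_1160 had 46.5 CPM. Animals Sample_1371, Sample_1379 and Sample_1385 were below every control, and Sample_936 and Sample_1219 were within the control range. Auts2 changed by -0.13 (standard error 0.0361, adjusted p = 0.04165) per allele. The call ended without Sample_933, Sample_938, Sample_1129, Sample_1155, Sample_1189, Sample_1190, Sample_1192, Sample_1219, Sample_1371, Sample_1379 or Sample_1385, with adjusted p of 0.0508, 0.0512, 0.0849, 0.09996, 0.0524, 0.06805, 0.0534, 0.05035, 0.110, 0.0732 and 0.0898 in that order. Without a term for sex it was -0.13 (adjusted p = 0.0989) and with all 18 libraries -0.20 (adjusted p = 0.1845), and the lowest adjusted p over the alternatives was 0.0119. For the animals inside the number range alone it was -0.14, from a fit with Sample_1219 as its only cKO-/- library. In the cerebellum Auts2 had 69.6, 82.8 and 86.1 CPM in controls, 69.3, 81.6 and 89.9 CPM in cKO+/- and 69.6, 78.7 and 85.6 CPM in cKO-/- mice, with broad overlap and a change of -0.03 (adjusted p = 0.614).

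Tbr1 was above 1 CPM in too few cerebellar libraries to be tested, with 0.248, 0.638 and 1.065 CPM in controls, 0.341, 0.475 and 0.793 CPM in cKO+/- and 0.268, 0.447 and 0.673 CPM in cKO-/- mice. In the hippocampus Tbr1 had 45.1, 54.7 and 58.8 CPM in controls, 46.2, 59.2 and 62.1 CPM in cKO+/- mice and 60.1 (Sample_936), 54.2 (Sample_1379), 51.25 (Sample_1219), 44.65 (Sample_1371) and 41.7 CPM (Sample_1385) in cKO-/- mice, with 41.4 CPM in Sample_1160. The groups overlap and the change was -0.04 (adjusted p = 0.689). Foxp1, a forkhead repressor related to Foxp2, had 22.8, 24.7 and 27.8 CPM in control cerebellum, 24.1, 27.1 and 29.4 CPM in cKO+/- and 22.9, 25.6 and 28.6 CPM in cKO-/- mice. In the hippocampus Foxp1 had 57.1, 70.4 and 75.8 CPM in controls, 65.3, 71.1 and 79.3 CPM in cKO+/- mice and 78.95 (Sample_1219), 71.9 (Sample_1371), 71.4 (Sample_936), 70.6 (Sample_1379) and 61.3 CPM (Sample_1385) in cKO-/- mice, with 62.05 CPM in Sample_1160. Foxp1 was not called in the cerebellum (0.01, adjusted p = 0.886) or the hippocampus (0.02, adjusted p = 0.747). Of the others, Myt1l, a zinc finger factor that keeps neuronal identity, had 0.09 in the cerebellum (adjusted p = 0.231), Med13l, a subunit of the Mediator kinase module, -0.09 in the hippocampus (adjusted p = 0.06155), and Tcf4, a basic helix-loop-helix factor, -0.04 and 0.01 in the cerebellum and hippocampus.

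More synapse and membrane members were above 0 in the cerebellum and below 0 in the hippocampus, but edgeR's quasi-likelihood test called Dscam alone. In the cerebellum 4 of 6 were above 0 with a median of 0.10. There edgeR called 1 of 6, beside 13.7% of all genes, and DESeq2 called 2, Dscam and Shank2, beside 2569 of 14027. In the hippocampus 5 of 6 were below 0 with a median of -0.04, and 2 had unadjusted p below 0.05. Both tools called 0 there, beside 4.44% of all genes for edgeR and 1056 of 14339 for DESeq2. With scores of neighbouring tissue as terms the cerebellar median was -0.08, and without control Sample_1190 it was 0.04. Dscam in the cerebellum had 19.9, 30.9 and 34.3 CPM in controls, 33.7, 36.0 and 43.7 CPM in cKO+/- mice and 34.2, 41.1 and 55.01 CPM in cKO-/- mice. Control Sample_1190 was the lowest library and Sample_1385 and Sample_1371 the highest, and all cKO-/- libraries but Sample_1160, which sat just below the highest control, were above the controls. Dscam rose by 0.27 (standard error 0.0660, adjusted p = 0.0132) per allele and was called whichever of the 18 animals was left out. It was 0.17 (adjusted p = 0.270) with a term for the animal number range, 0.15 (adjusted p = 0.343) for the animals inside the range alone and 0.14 (adjusted p = 0.208) with scores of neighbouring tissue, from 0.001985 to 0.343 over the alternatives. In the hippocampus Dscam had 71.2, 91.5 and 100.5 CPM in controls and 76.3, 88.3 and 92.5 CPM in cKO+/- mice, and the cKO-/- libraries had 90.4 (Sample_1219), 89.2 (Sample_936), 87.7 (Sample_1371), 78.4 (Sample_1385) and 77.15 CPM (Sample_1379), with 43.1 CPM in Sample_1160. These all lie within the control range apart from Sample_1160, and the change was -0.03 (adjusted p = 0.527).

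Shank2, a scaffold of the postsynaptic density, had 99.3, 231.8 and 263.8 CPM in control cerebellum, 221.5, 251.1 and 289.6 CPM in cKO+/- mice and 220.5, 274.5 and 436.5 CPM in cKO-/- mice. Control Sample_1190 was far below every other library, Sample_1371 and Sample_1385 were far above, and the other groups overlap. In the hippocampus Shank2 had 164.1, 186.7 and 208.0 CPM in controls and 157.5, 185.6 and 204.9 CPM in cKO+/- mice, and the cKO-/- libraries had 190.3 (Sample_1219), 170.9 (Sample_936), 158.8 (Sample_1371), 156.1 (Sample_1379) and 142.2 CPM (Sample_1385), with 8.85 CPM in Sample_1160. The cKO-/- animals Sample_1371, Sample_1379 and Sample_1385 were thus below every control. The change per allele was 0.26 (standard error 0.0911, adjusted p = 0.0666) in the cerebellum and -0.10 (standard error 0.0328, adjusted p = 0.104) in the hippocampus, neither of them called. Shank2 was called in the cerebellum by DESeq2 (adjusted p = 0.0361), with an exon length slope as a term (adjusted p = 0.0313) and without Sample_1379 (0.29, adjusted p = 0.0485), and in the hippocampus without Sample_1120 (-0.10, adjusted p = 0.0387). Over the alternatives the adjusted p ran from 0.0313 to 0.777 in the cerebellum and from 0.0387 to 0.991 in the hippocampus.

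**Figure D4:**
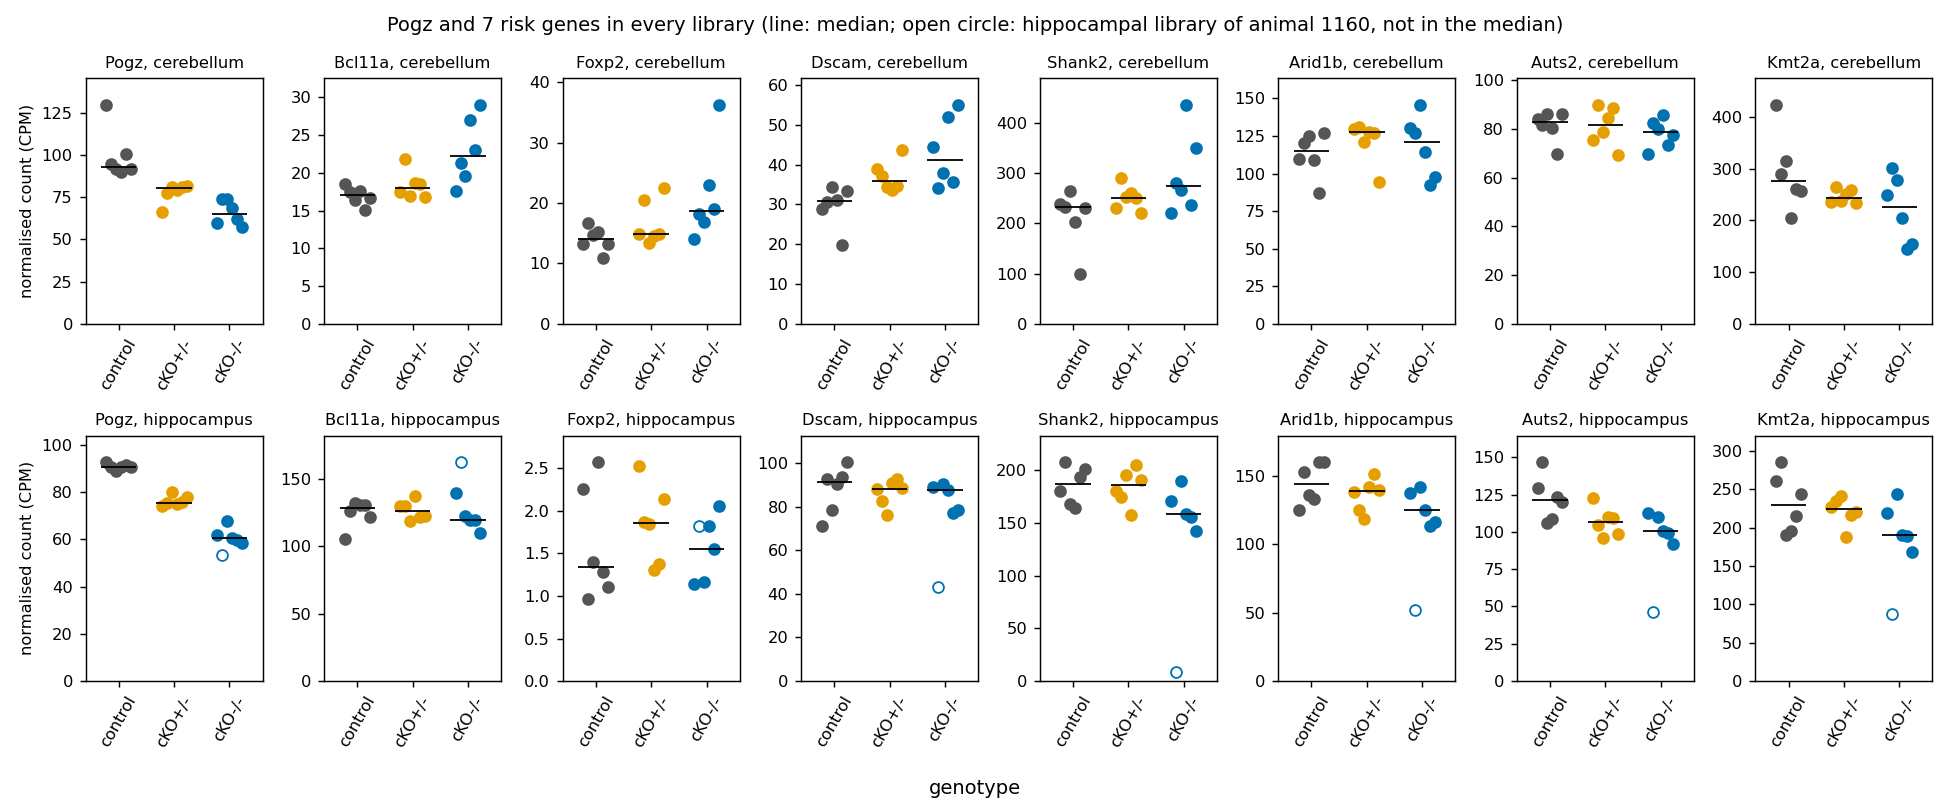
CPM of Pogz and 7 members in every library of each genotype in cerebellum and hippocampus, with lines at the median and an open circle for the hippocampal library of Sample_1160, left out of the median. Pogz steps down with each allele, while Bcl11a, Foxp2 and Dscam spread upward in cerebellar cKO-/- mice.

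Shank3, a second scaffold of the postsynaptic density, had 307.1, 356.6 and 383.0 CPM in control cerebellum, 257.1, 353.8 and 387.2 CPM in cKO+/- and 272.5, 318.5 and 385.6 CPM in cKO-/- mice. In the hippocampus Shank3 had 285.1, 358.2 and 436.5 CPM in controls and 291.3, 316.0 and 348.2 CPM in cKO+/- mice, and 332.3 (Sample_1219), 331.4 (Sample_936), 318.6 (Sample_1379), 314.5 (Sample_1385) and 293.7 CPM (Sample_1371) in cKO-/- mice, with 138.5 CPM in Sample_1160. All groups overlap, with changes of -0.05 (adjusted p = 0.476) and -0.07 (adjusted p = 0.282). Nlgn3, a postsynaptic partner of neurexins, had 31.8, 54.8 and 58.2 CPM in control cerebellum, 51.2, 52.7 and 57.1 CPM in cKO+/- and 50.35, 57.4 and 57.9 CPM in cKO-/- mice. In the hippocampus Nlgn3 had 80.2, 92.1 and 109.8 CPM in controls, 80.1, 89.4 and 99.5 CPM in cKO+/- mice and 104.3 (Sample_1219), 89.8 (Sample_936), 86.45 (Sample_1379), 85.4 (Sample_1371) and 81.0 CPM (Sample_1385) in cKO-/- mice, with 51.3 CPM in Sample_1160. Apart from the low control Sample_1190 in the cerebellum and Sample_1160 in the hippocampus, the Nlgn3 groups overlap (0.07, adjusted p = 0.370, and -0.03, adjusted p = 0.482). Without Sample_1190 the cerebellar Nlgn3 value was 0.02.

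Cntnap2, a neurexin-like protein that clusters potassium channels along axons, had 32.1, 62.9 and 79.1 CPM in control cerebellum, 74.6, 79.5 and 89.6 CPM in cKO+/- mice and 45.3, 78.3 and 88.0 CPM in cKO-/- mice. Here the cKO+/- mice were as high as the cKO-/- mice, control Sample_1190 was lowest and cKO-/- animal Sample_1379 lay among the controls. In the hippocampus Cntnap2 had 83.4, 109.1 and 128.3 CPM in controls, 84.0, 111.5 and 136.0 CPM in cKO+/- mice and 129.2 (Sample_1219), 125.9 (Sample_1371), 125.5 (Sample_1385), 125.2 (Sample_1379) and 108.3 CPM (Sample_936) in cKO-/- mice, with 46.7 CPM in Sample_1160. The change per allele was 0.13 (standard error 0.0939, adjusted p = 0.357) in the cerebellum and 0.07 in the hippocampus (adjusted p = 0.390), so in these fits Cntnap2 was the 1 synapse and membrane member above 0 in both tissues. Over the alternatives the cerebellar change ran from -0.22 to 0.21, the lowest with scores of neighbouring tissue (adjusted p = 0.188). Ank2 had -0.08 (adjusted p = 0.214) and -0.05 (adjusted p = 0.2415).

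None of the 9 members of signalling, ubiquitin transfer, RNA control and the cytoskeleton was called per allele by edgeR's quasi-likelihood test in either tissue. That test called 13.7% of all genes in the cerebellum and 4.44% in the hippocampus. DESeq2 called 1 member in each, Ctnnb1 up in the cerebellum and Tsc2 down in the hippocampus, beside 2569 of 14027 and 1056 of 14339 genes. At unadjusted p below 0.05 there were 2 members in each, 1 up and 1 down (all genes at that threshold are given above). The medians were 0.01 in both tissues. Fmr1, the RNA-binding protein lost in fragile X syndrome, had 108.8, 110.2 and 117.4 CPM in control cerebellum, 93.7, 106.9 and 111.9 CPM in cKO+/- and 89.1, 107.9 and 120.9 CPM in cKO-/- mice. In the hippocampus Fmr1 had 78.45, 84.7 and 90.0 CPM in controls, 72.3, 82.4 and 92.4 CPM in cKO+/- mice and 98.35 (Sample_1379), 94.7 (Sample_1371), 89.6 (Sample_1385), 84.4 (Sample_1219) and 79.9 CPM (Sample_936) in cKO-/- mice, with 56.7 CPM in Sample_1160. The groups overlap, with changes of -0.03 (adjusted p = 0.568) and 0.03 (adjusted p = 0.606). Tsc2, which with Tsc1 restrains mTOR signalling, had -0.10 in the cerebellum (adjusted p = 0.143) and -0.09 in the hippocampus (adjusted p = 0.0714), and Tsc1 had -0.06 and -0.04. Ctnnb1 had 0.09 (adjusted p = 0.0640) and 0.06 (adjusted p = 0.187). None of the ubiquitin ligase members Cul3 (0.07 and 0.08) and Trip12 (0.01 and 0.03), the kinase Dyrk1a (-0.05 and -0.01), Wac (0.02 and 0.01) and Katnal2, a relative of microtubule-severing katanin (0.16 and -0.04), was called.

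The effect of a lost allele differed between the tissues for Dscam and, in the fit without a block for the animal, for Bcl11a. Their fold changes, hippocampus minus cerebellum, were -0.31 (standard error 0.0768, adjusted p = 0.0282) for Dscam and -0.24 (standard error 0.0619, adjusted p = 0.0393) for Bcl11a, both with a rise in the cerebellum and no called change in the hippocampus. They are 2 of 39 members, beside 1.49% of all genes tested. At unadjusted p below 0.05 there were 5, all more negative in hippocampus, which are not set beside all genes here. DESeq2 called Dscam, Bcl11a and Shank2 (-0.36, adjusted p = 0.0353), beside 337 of 13587 genes, 272 of these more negative in hippocampus. Shank2 was not called by edgeR (-0.36, standard error 0.106, adjusted p = 0.0845, from 0.0353 to 0.999 over the alternatives). Both libraries of an animal share that animal, and the correlation of their departures was above 0.1 in 15 of 17 animals (median 0.262, against -0.096 between different animals of 1 genotype). With the animal as a replicate block the difference was -0.34 (adjusted p = 0.0210) for Dscam and -0.24 (adjusted p = 0.07515) for Bcl11a, so the Bcl11a call is lost. That fit leaves out both libraries of Sample_1160. Without that animal and without the block, Bcl11a was still called.

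These calls also depended on single animals, while the differences kept their sign. For Bcl11a the call ended without Sample_933, Sample_1170, Sample_1172, Sample_1189, Sample_1190, Sample_1192, Sample_1371, Sample_1379 or Sample_1385, with adjusted p of 0.0523, 0.09395, 0.0942, 0.0539, 0.125, 0.0543, 0.146, 0.0702 and 0.165 in that order and differences of -0.26 to -0.18. For Dscam it ended without Sample_936, Sample_1155, Sample_1172, Sample_1190, Sample_1192, Sample_1371 or Sample_1385, with adjusted p of 0.0596, 0.0560, 0.0701, 0.0646, 0.0552, 0.101 and 0.109 and differences of -0.32 to -0.26. The count of members was therefore 1 without Sample_933, Sample_936, Sample_1155, Sample_1170, Sample_1189 or Sample_1379 (beside 1.07% to 1.24% of all genes) and 0 without Sample_1172, Sample_1190, Sample_1192, Sample_1371 or Sample_1385 (0.626% to 0.898%). With a term for the animal number range neither was called (-0.19 for Dscam and -0.20 for Bcl11a, adjusted p = 0.999 for both). Over the alternatives the difference ran from -0.37 to -0.19 and its adjusted p from 0.006915 to 0.999 for Dscam, and from -0.29 to -0.18 and 0.0118 to 0.999 for Bcl11a. With all 18 hippocampal libraries Dscam was called (-0.37, adjusted p = 0.0337) and Bcl11a was not (-0.20, adjusted p = 0.153).

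By genotype, each comparison uses the same controls. In cKO-/- cerebellum Foxp2 (log2 fold change 0.59, adjusted p = 0.0489), Dscam (0.54, adjusted p = 0.0159) and Bcl11a (0.43, adjusted p = 0.01125) rose, 3 of 39 members beside 12.7% of all genes, with 5 called without Sample_1160 (beside 17.7% of all genes), 5 without Sample_1219 (15.5%) and 1 without Sample_1385 (6.15%). In cKO-/- hippocampus Auts2 (-0.26, adjusted p = 0.0453), Arid1b (-0.21, adjusted p = 0.0261) and Tsc2 (-0.19, adjusted p = 0.0394) fell, 3 of 40 beside 4.87% of all genes. That count was 6 without Sample_936 (beside 11.3% of all genes), 1 without Sample_938, Sample_1129, Sample_1155, Sample_1170 or Sample_1189 (3.74% to 4.63%) and 0 without Sample_1190, Sample_1192, Sample_1371, Sample_1379 or Sample_1385 (2.34% to 3.38%). In cKO+/- mice edgeR's quasi-likelihood test called 0 of 39 members in the cerebellum, beside 0.342% of all genes, and 0 of 40 in the hippocampus, beside 0.0349%. DESeq2 called 0 members in either tissue, beside 158 of 14027 and 95 of 14339 genes. At unadjusted p below 0.05 there were 2 and 3 members, which are not set beside all genes here. Those 2 in the cerebellum were Cntnap2 (0.41, adjusted p = 0.390) and Dscam (0.32, adjusted p = 0.390). The 3 in the hippocampus were Auts2 (-0.19, adjusted p = 0.321), Ash1l (-0.14, adjusted p = 0.439) and Kmt2c (-0.13, adjusted p = 0.497).

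The ranges of the libraries are a stricter criterion, without a model. For 0 of 39 members in the cerebellum and 0 of 40 in the hippocampus did every cKO-/- library lie outside the range of the controls on 1 side, beside 4.58% and 3.65% of all genes tested. By edgeR's quasi-likelihood test cKO-/- mice against controls have 11 of 39 and 12 of 40 members at unadjusted p below 0.05, beside 4185 of 14027 and 3103 of 14339 genes. DESeq2 calls 5 and 8, beside 2526 and 1161 genes. No member thus separates the homozygous mice from the controls library by library. For lists of 39 and 40 genes a count of 0 is near the shares over all genes. Pogz, the deleted gene, does separate them in both tissues.

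Markers of other cell types also varied between animals. Counts of called markers in the cerebellum stand beside 13.7% of all genes called per allele there. The counts for endothelial cells and pericytes and for choroid plexus lie near that share. In the cerebellum the summed level of 12 meningeal markers (11 tested) had a lowest, median and highest value of 268.9, 298.1 and 361.1 CPM in controls, 334.5, 420.9 and 525.7 CPM in cKO+/- mice and 340.0, 624.1 and 657.7 CPM in cKO-/- mice, with 6 of 11 called up per allele and Igf2 most abundant. The cKO-/- animals outside the number range had 617.4 to 657.7 CPM, whereas Sample_1160 had 340.0 CPM and Sample_1219 had 410.7 CPM. Oligodendrocyte markers were called up for 5 of 14 (Mbp most abundant; medians 5301, 6308 and 6758 CPM from controls to cKO-/-). Markers of hippocampal neurons that passed the cerebellar filter were called up for 3 of 8, and the sum of the set, led by Wfs1, was 113.3, 159.4 and 168.8 CPM in controls, 157.7, 173.4 and 176.6 CPM in cKO+/- and 169.8, 174.4 and 205.5 CPM in cKO-/- mice, so that cKO-/- mice were above every control. Neocortex markers were called up for 4 of 7, though their sums overlap between all groups, and astrocyte markers for 4 of 12, while endothelial and pericyte markers were called down for 2 of 14. Of the few brainstem and midbrain markers that passed the filter, 1 of 2 was called up and 1 of 5 down in that order. Markers of the choroid plexus, led by Ttr, summed to 20.7 to 29.5 CPM in controls but to 2435 CPM in Sample_933, 3132 CPM in Sample_936 and 3258 CPM in Sample_1433, with 1 of 8 tested called up. Each of these markers had counts in some cerebellar library, and edgeR's quasi-likelihood test called 0 of 14 cerebellar neuron markers, with 2 at unadjusted p below 0.05 (DESeq2 was not summed over markers). Foxp2, Bcl11a, Dscam and Shank2 were all highest in Sample_1385 or Sample_1371, which also had high meningeal sums. The meningeal sums of Sample_936 and Sample_1379 were about as high. Of these, Sample_1379 was above every control for Bcl11a, Foxp2 and Dscam, whereas Sample_936 was inside the control range for Bcl11a and Foxp2. What part these cells have in the values of the members was not tested.

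In the hippocampus 3 of 14 markers of hippocampal neurons, led by Neurod6, were called down and none up, with summed levels (lowest, median and highest) of 1122, 1301 and 1660 CPM in controls, 882.8, 1138 and 1278 CPM in cKO+/- and 1014, 1061 and 1111 CPM in cKO-/- mice. Endothelial and pericyte markers were called up for 4 of 14 (Slc2a1 most abundant; medians 356.5, 385.6 and 433.9 CPM) and oligodendrocyte markers for 2 of 14 (Mbp most abundant; medians 4520, 4796 and 5973 CPM). Neocortex markers were called down for 3 of 12 and those of thalamus and habenula for 1 of 11. Counts of called markers in the hippocampus stand beside 4.44% of all genes called per allele. Sets with 1 called marker are near that share. Meningeal markers were called up for 1 of 12 (Crym most abundant; medians 371.8, 523.6 and 566.9 CPM) and astrocyte markers for 1 of 12. The choroid plexus sum, led by Ttr, was highest in Sample_1385 (5231 CPM) and control Sample_1129 (5059 CPM), against 48.3 CPM at the median of the controls, and edgeR's quasi-likelihood test called 0 of its 10 tested markers, with 0 at unadjusted p below 0.05. The part of these cells in the lower Arid1b and Auts2 was not tested. With scores of neocortex, thalamus and habenula, and choroid plexus as terms, Arid1b (adjusted p = 0.0265) and Auts2 (adjusted p = 0.0473) were called, whereas other alternatives given above ended both calls.

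Members are long genes, and length also varied with the libraries. The members tested in the cerebellum had a median of 7258 bases of exon and a span of 109 kb, beside 3031 bases and 23 kb over all genes, and 56.4% of them span more than 100 kb, beside 14.5%. Of all cerebellar genes over 100 kb, 17.1% were called, with a median change of 0.05 per allele. Of genes with more than 6 kb of exon, 13.1% were called in the cerebellum, beside 13.7% of all genes. In the hippocampus that share was 5.99%, beside 4.44%. A library's rank correlation of exon length with its departure from the control mean ran from -0.653 in the hippocampus of Sample_1160 and -0.54 in the cerebellum of control Sample_1190 to 0.368 in the cerebellum of control Sample_1170. With that slope as a term, a fit chosen after seeing the data, 15 of 39 cerebellar members were called (5 up, 10 down), beside 18.6% of all genes in that fit, and 5 of 40 hippocampal members (all down), beside 6.69%. With scores of midbrain, of brainstem and of choroid plexus as terms, 16 of 39 were called in the cerebellum, 1 up and 15 down, beside 11.3% of all genes in that fit. Bcl11a is the member called up by that fit (0.28, adjusted p = 0.0289, within 0.00139 to 0.1965 over the alternatives). The direction of the median of the chromatin members in the cerebellum therefore depends on which term is in the fit. Among the members followed over all alternatives there, Bcl11a, Dscam, Foxp2 and Shank2 stayed above 0. The chromatin members Kmt2a and Ehmt1 stayed below 0. The part of exon length in these values was not tested. Exons of Chd2, Kmt2e, Rai1 and Tsc2 overlap those of a neighbouring gene, 1810026B05Rik, Srpk2, Srebf1 and Pkd1 in that order, and whether counting used the strand is not given.

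**Figure D5:**
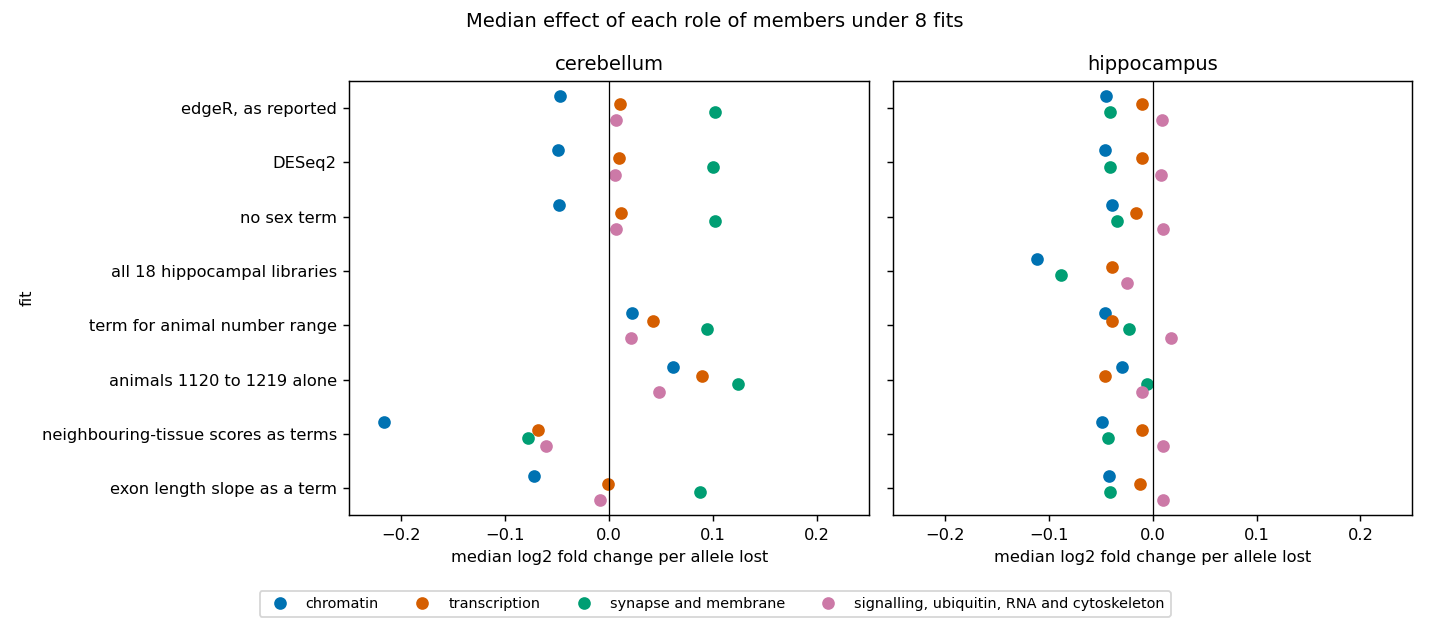
Median log2 fold change per allele lost (horizontal) of the members of each role under 8 fits (vertical), in cerebellum and in hippocampus. Cerebellar chromatin members run from -0.22 to 0.06 across fits, while the hippocampal medians stay within -0.11 and 0.02.

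A wider list of 110 risk genes outside the 40, of which 109 are in the tables, was not above its background by edgeR's quasi-likelihood test. In the cerebellum 8 of 108 tested were called per allele, or 7.41% beside 13.7% of all genes, with a median of -0.03. Of these, 7 are given here. Up were the cadherin Cdh13 (0.345, adjusted p = 0.0365), the remodeller Chd3 (0.21, adjusted p = 0.00848) and Satb1 (0.14, adjusted p = 0.0186). Down were Gigyf1, a translational repressor (-0.21, adjusted p = 0.0390), the chromatin reader Zmynd8 (-0.17, adjusted p = 0.00808), the neurexin Nrxn3 (-0.14, adjusted p = 0.0414) and Deaf1 (-0.13, adjusted p = 0.04015). In the hippocampus 2 of 109 were called, 1.83% beside 4.44%, both chromatin genes and both down: Zmynd8 (-0.15, adjusted p = 0.0154) and Rere (-0.15, adjusted p = 0.0191), with a median over the list of -0.01. Zmynd8 is the gene of either list called down in both tissues, whose libraries come from the same animals.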

How the data were processed

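The deposited tables hold read counts per gene, paired with exon positions and lengths. The labels say that reads were aligned with STAR to mm9, while the exon positions in the tables match GRCm38. Gene counts were read as given. In each tissue, the genes kept passed 1 CPM in 6 or more of all 18 libraries (14027 in cerebellum, 14339 in hippocampus) and were scaled by TMM. edgeR 4.0.16 in R 4.3.3 fitted a negative binomial model with sex and the number of Pogz alleles lost, and tested the slope with its quasi-likelihood F-test across all genes, with Benjamini-Hochberg adjustment. DESeq2 1.42.0 is the other tool named. Pairs of genotypes were fitted with genotype as a factor, the tissue difference as an interaction over 35 libraries, and control tissues over 12. The hippocampal library of Sample_1160 was left out of all fits unless stated. The tissue-difference fit with the animal as a block also left out its cerebellar library. No library was a copy of another (chi-square per degree of freedom of 5.75 or more over 90 pairs of the same group). Members and lists were chosen with earlier results of these data known. Long transcripts collect more counts, which can make small changes easier to call in them. The share of genes with long exons that was called was above that of all genes in the hippocampus but not in the cerebellum. A called gene of the wider list and a set of cell markers are not reported here.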

Additional observations from a re-analysis of the deposited data

Results flagged for a closer look

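Single libraries stood off from their group for 15 of 96 groups examined (16 genes in 6 groups), where chance marks about 1 in 20. Of these, 8 are the hippocampal cKO-/- library of Sample_1160: Dscam 43.14, Chd8 75.47, Ehmt1 22.81, Shank2 8.853, Shank3 138.5, Cntnap2 46.68, Arid1b 52.22 and Auts2 46.47 CPM, each the lowest of its 6 libraries. In the cerebellum, control Sample_1190 was lowest for Shank2 (99.34 CPM) and Auts2 (69.64 CPM), and control Sample_1129 highest for Pogz (129.6 CPM). Among cerebellar cKO+/- mice, Sample_938 was highest for Bcl11a (21.78 CPM), Sample_933 lowest for Pogz (66.36 CPM) and Sample_1433 lowest for Arid1b (94.71 CPM). In the hippocampus, control Sample_1129 was lowest for Bcl11a (105.5 CPM).

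The change per lost allele differed between the tissues for Bcl11a (-0.2395, hippocampus minus cerebellum) and Dscam (-0.3113) by the interaction test without a block for the animal. With that block the Bcl11a call is lost (adjusted p = 0.07515). What sets these apart was not tested.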

How the results depend on the processing

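Counts of members called changed with the fit (in brackets, the share of all genes called by the same fit). Cerebellum, cKO-/- against control, 3 (12.7%): DESeq2 5 (18%), a term for animal numbers outside Sample_1120 to Sample_1219 0 (2%), leaving out each animal 1 to 5. Cerebellum per allele, 3 (13.7%): DESeq2 5 (18.3%), number-range term 0 (2.2%), scores of neighbouring tissue 16 (11.3%), leaving out each animal 2 to 6; added after seeing the data, animals Sample_1120 to Sample_1219 alone 0 (1.97%) and an exon length slope 15 (18.6%). Tissue difference, 2 (1.49%): number-range term 0 (0.0736%), all 18 hippocampal libraries 1 (1.18%), replicate block 1 (2.47%), leaving out each animal 0 to 2. Hippocampus, cKO-/- against control, 3 (4.87%): DESeq2 8 (8.1%), no sex term 0 (4.37%), number-range term 0 (0.565%), all 18 libraries 0 (1.79%), leaving out each animal 0 to 6. Hippocampus per allele, 2 (4.44%): DESeq2 6 (7.37%), no sex term 0 (3.83%), number-range term 0 (0.474%), all 18 libraries 0 (1.72%), leaving out each animal 0 to 3. Added after seeing the data, an exon length slope gave 5 (6.69%). No hippocampal count is given for the animals Sample_1120 to Sample_1219 alone, where Sample_1219 is the only cKO-/- library in the fit. The cKO+/- counts were 0 throughout. Arid1b in the cerebellum turned from 0.03 to -0.18 with scores of neighbouring tissue.

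Pairing by animal: with the replicate block 29 members were called between control tissues in place of 28, with Med13l added, and the tissue difference of Bcl11a (-0.24) lost its call. No other member's call changed with the block.

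Of 881 values of named genes under other fits, 806 kept their call and direction, 60 lost a call, 14 gained one and 1 turned. All 208 medians by role moved by no more than the spread between control libraries. Relative log expression size factors, or no filter on low counts, changed no call of a named gene per allele.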
